A study of Mus musculus with 8 samples.

Results

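The microRNA family of miR-15, miR-16, miR-195a and miR-497a was followed through small RNA libraries of mouse prefrontal cortex. Its members were taken by name from the deposited tables: mmu-miR-15a-5p, mmu-miR-15b-5p, mmu-miR-15b-3p, mmu-miR-16-5p, mmu-miR-16-1-3p, mmu-miR-16-2-3p, mmu-miR-195a-5p and mmu-miR-497a-5p (the prefix mmu, for mouse, is mostly left out below). All 8 were among the 1915 mature miRNA names listed. The rule that names them uses no measured value. The tissue came from C57BL/6 mice at 12 weeks of age, either wild type (4 libraries, replicates 1, 2, 3 and 4) or Fkbp5 Knockout (4 libraries, numbered 1, 2, 4 and 5). The product of Fkbp5 works with the chaperone Hsp90 and restrains signalling by the glucocorticoid receptor. The knockout allele, the sex of the mice and whether each library is a separate animal are not given in the sources used here, and p-values then cover only how these libraries vary, which may be technical. The assay does not read Fkbp5 messenger RNA and therefore does not check the genotype labels.

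A microRNA hairpin is cut into a duplex with a 5p and a 3p strand, and the strand kept in the Argonaute protein, the guide, finds its targets mainly through its seed, bases 2 to 8. miRNAs of this family share a seed and repress genes that drive the cell cycle, including cyclins, and the anti-apoptotic gene Bcl2. In the brain they are linked to the exit of neural cells from division and to neuronal maturation and survival. They come from 3 transcribed loci: the long non-coding RNA gene Dleu2, the condensin gene Smc4, and the locus of miR-497 and miR-195.

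The mature sequences are shown because they set which members can be told apart and which target rules they share. RefSeq sequences on GRCm38.p6 were found for 8 of the 8 members. They are written 5′ to 3′, and in the 5p strands the capitals mark the seed.
miR-16-5p: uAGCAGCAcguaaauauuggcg
miR-195a-5p: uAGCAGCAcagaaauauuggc
miR-15a-5p: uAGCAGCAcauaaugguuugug
miR-15b-5p: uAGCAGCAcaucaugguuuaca
miR-497a-5p: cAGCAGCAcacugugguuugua
All 5 guides shared bases 2 to 9. From base 1 onward miR-16-5p and miR-195a-5p differed at 2 of 21 positions, G10A and U11G (the miR-16-5p base first, positions counted from the 5′ end). miR-15a-5p and miR-15b-5p differed at 4 of 22 positions. miR-16-5p and miR-497a-5p were the least alike of the 5, with 11 differences in 22. Of 1679 mature mouse miRNAs in the sequence table, 10 carried this seed (0.596%).

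The 3p strands are shown because they alone separate the loci of miR-16. In them the capitals mark the letters UGCUGC, which can pair with bases 3 to 8 of the guides.
miR-15b-3p: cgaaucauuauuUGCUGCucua
miR-16-1-3p: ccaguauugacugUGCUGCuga
miR-16-2-3p: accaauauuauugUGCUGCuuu
miR-195a-3p: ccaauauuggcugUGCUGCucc
miR-15a-3p: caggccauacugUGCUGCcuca
miR-497a-3p: caaaccacacugugguguuag
UGCUGC, searched as written on the RNA strand, was present in 5 of these 6 strands and in 10 of 709 mouse 3p strands (1.41%). It was not in miR-497a-3p.

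The miR-16-5p strand is cut from both Mir16-1 and Mir16-2, and its 22 bases are the same from either. The hairpins, with both mature strands in capitals, differ in loop, flanks and 3p strand.
Mir16-1: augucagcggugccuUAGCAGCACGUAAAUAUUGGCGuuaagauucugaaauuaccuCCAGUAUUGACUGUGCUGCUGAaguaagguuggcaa
Mir16-2: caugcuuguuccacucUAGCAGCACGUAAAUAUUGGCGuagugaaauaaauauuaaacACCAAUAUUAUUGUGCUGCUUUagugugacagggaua
Mir16-1 lies on chromosome 14 at 61631880 to 61631972, minus strand (GRCm38), with Mir15a at 61632027 to 61632110, 54 bases away. Both sit in Dleu2, Mir15a within an intron and Mir16-1 overlapping an exon of an annotated Dleu2 transcript. Mir16-2 lies on chromosome 3 at 69009902 to 69009996, plus strand, 66 bases from Mir15b at 69009772 to 69009835, and both are in an intron of Smc4, whose protein is a subunit of condensin. Mir497 (70234717 to 70234800) and Mir195a (70235042 to 70235135) are on the plus strand of chromosome 11 with 241 bases between them. The annotation places no host gene over Mir195a, and over Mir497 only the antisense hairpin Mir497b.

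Deposited values summed to between 16180699 and 21555993 per library, and the genotypes' totals did not separate (exact permutation test, two-sided, p = 0.771). The values below were divided by a scaling factor per library, 0.840 to 1.204, from trimmed log ratios to a single reference library, and have no fixed unit. The neuronal miRNAs miR-124-3p, miR-9-5p and miR-128-3p summed to between 6230150 and 8226930 rescaled units per library. The liver miRNA miR-122-5p, listed as a control expected to be absent, was present too, at 313 to 455. Every rescaled value of miR-15a-5p, miR-497a-5p and the 3p members was lower than that. Why miR-122-5p was present was not tested. Fewer cells of a type and less RNA per cell cannot be told apart in bulk tissue.

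miR-16-5p made up most of the family in every library. For mmu-miR-16-5p the rescaled values were 46076, 58768, 46975 and 43091 in wild-type replicates 1, 2, 3 and 4, and 46175, 44089, 44812 and 51259.5 in knockout replicates 1, 2, 4 and 5. Wild-type replicate 2 was the highest and knockout replicate 5 the next, and the groups overlapped. By its mean it ranked 36 among all names listed. It held 93.3% to 94.8% of the sum of the 5 guides, and that sum was 0.239% to 0.349% of a library's total.

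The next guide in abundance was miR-195a-5p, the main product of the chromosome 11 locus. mmu-miR-195a-5p was at 1586, 2296, 1606 and 1711 in wild type and at 1580.3, 1754, 1711 and 1899 in the knockout (replicates in the same order, here and below). The highest library was again wild-type replicate 2. It was 27.0-fold below miR-16-5p, a log2 difference of 4.76 ± 0.10 (SD over 8 libraries) that ran only from 4.65 to 4.87.

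mmu-miR-15b-5p, from Smc4, was at 649, 894, 746 and 989 in wild type and at 754, 841, 727 and 866 in the knockout. Here wild-type replicate 4 was highest and replicate 1 lowest, so the wild-type libraries bracketed all 4 knockout libraries. Within libraries miR-195a-5p exceeded it by 1.13 ± 0.17 on the log2 scale, in 8 of 8 libraries.

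mmu-miR-15a-5p, from Dleu2, was 3.66-fold below miR-15b-5p, at 164, 283, 213 and 225 in wild type and 207, 219.7, 214 and 239 in the knockout. miR-497a-5p was at 154, 302, 190.4 and 163 in wild type and 166, 180.0, 165 and 154 in the knockout. Wild-type replicate 2 stood above the other 7 libraries for both. These neighbours in the order were not separated: miR-15a-5p exceeded miR-497a-5p by 0.28 ± 0.22 on the log2 scale, in 7 of 8 libraries, with the order turned in wild-type replicate 2.

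The 3p members were low. miR-15b-3p was at 25.2, 38.2, 36.9 and 44.4 in wild type and at 15.03, 36.6, 20.5 and 35.2 in the knockout, with knockout replicates 1 and 4 below every wild-type library and the other two inside the wild-type range. miR-16-2-3p averaged 10.6 and miR-16-1-3p 7.24 over the 8 libraries. As deposited, miR-16-2-3p was at 7, 10, 12 and 14 in wild type and 12, 7, 14 and 6 in the knockout, and miR-16-1-3p at 11, 10, 4 and 5 and at 9, 3, 11 and 6. miR-16-2-3p was above miR-16-1-3p in 5 libraries, equal to it in 2 and below it in 1, so these neighbours were not separated either. Levels of different miRNAs also depend on how well each strand is ligated, so the order is a description. All strands are 21 or 22 bases long, so no correction for length was made.

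**Figure D1:**
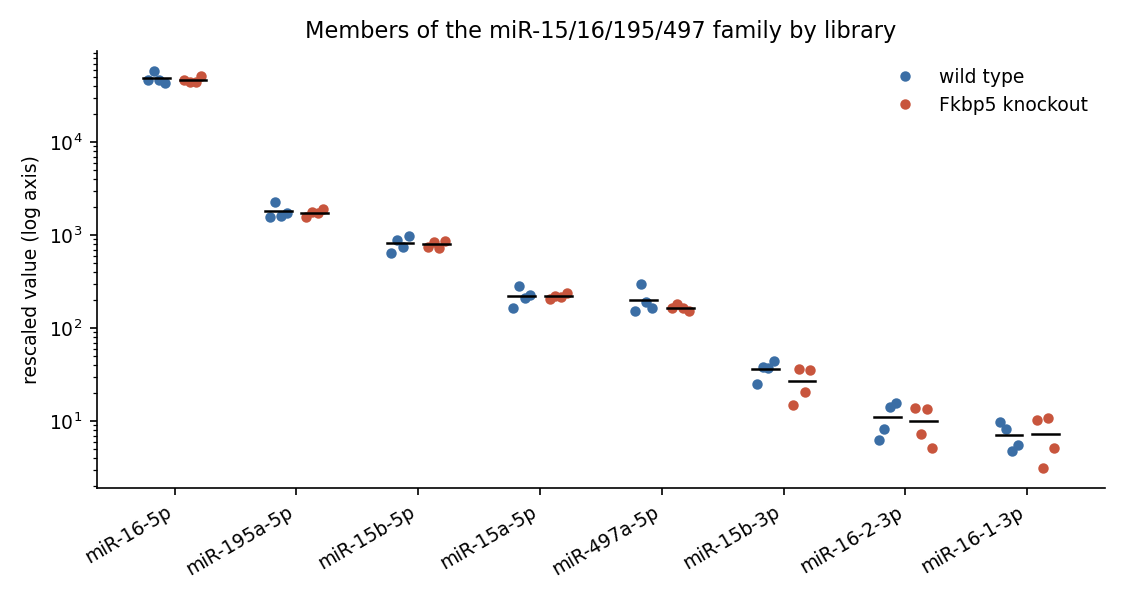
Rescaled values (log axis) of the 8 members in each wild-type and Fkbp5 knockout library, with 4 points and a line at the mean for each group. miR-16-5p lies 27.0-fold above miR-195a-5p, miR-15a-5p and miR-497a-5p sit side by side, and the genotypes overlap for every member.

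The comparison of genotypes asks whether the family differs when Fkbp5 is missing. No member passed the test. Of 8 members, 7 reached the filter on low values (10 or more at the depth of the median library, reached in 4 or more libraries), and miR-16-1-3p did not. By limma with Benjamini-Hochberg adjustment at 0.05, 0 of 7 tested members were called, against 0 of 599 miRNAs (0%). At an unadjusted p under 0.05 there were 0 members, against 24 of 599 (4.01%). In 0 of the 7 the groups of libraries did not overlap, against 9 of 599 (1.5%).

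The intervals were narrowest for the abundant guides. Log2 fold changes, knockout over wild type, are on the log2(value + 1) scale, which understates changes of low miRNAs. For miR-16-5p it was -0.06 ± 0.11 (SE), with means of 48727 ± 6896 for wild type and 46584 ± 3235 for the knockout (SD over 4 libraries), and its 95% interval of -0.30 to 0.19 left out a 1.5-fold change either way. The same held for miR-195a-5p (-0.04, interval -0.34 to 0.26), miR-15b-5p (-0.03, interval -0.35 to 0.30) and miR-15a-5p (0.02, interval -0.36 to 0.39). Differences larger than that are therefore outside the intervals of these 4, and smaller ones could not be resolved with 4 libraries a group.

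The mean of miR-497a-5p was 202 ± 68.1 for wild type libraries and 166 ± 10.8 for knockout libraries, a log2 fold change of -0.23 ± 0.20 (limma adjusted p = 0.994). Wild-type replicate 2 alone carried most of that difference: without it the log2 fold change was -0.02. In that library the summed level of 4 endothelial and smooth muscle miRNAs (miR-126a-3p, miR-126a-5p, miR-143-3p and miR-145a-5p) was also the highest of the 8, at 101602, against 72863 to 81947 in the other wild-type libraries and 55398 to 87044 in the knockout. The summed level of 4 red blood cell miRNAs was not, at 3683 against a range of 3140 to 5577 in wild type. Nor were the summed oligodendrocyte miRNAs or the summed microglia and leukocyte miRNAs, sums made up mostly of miR-219a-2-3p and miR-150-5p. Single members of these lists were highest there, miR-338-3p (883), miR-219a-5p (50.7) and miR-142a-5p (487). The other members, miR-219a-2-3p, miR-142a-3p, miR-223-3p and miR-150-5p, were not. The neuronal sum of that library, 6251450, was the lowest of the wild-type libraries. Its members miR-128-3p and miR-9-5p were also lowest there, and miR-124-3p was not, at 720169 against a wild-type range of 533567 to 875915. Of the cell cycle miRNAs described below, miR-93-5p (3503), miR-17-5p, miR-20a-5p, miR-106b-5p, miR-19b-3p, miR-34b-5p, miR-34c-5p, miR-322-5p and miR-503-5p were highest in wild-type replicate 2. The others on that list were not: miR-25-3p (5530), miR-92a-3p, miR-34a-5p, miR-449a-5p, miR-221-3p, miR-222-3p, let-7a-5p, let-7b-5p and miR-26a-5p. The part of vessels in the result was not tested.

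The least precise members were the 3p strands. miR-15b-3p averaged 36.2 ± 8.01 and 26.8 ± 10.7, a log2 fold change of -0.48 ± 0.31 with an interval of -1.16 to 0.20 (limma adjusted p = 0.994). With each library left out in turn that log2 fold change ran from -0.65 (without knockout replicate 2) to -0.24 (without knockout replicate 1). miR-16-2-3p was at -0.15 ± 0.40, and its interval of -1.04 to 0.73 also included a 2-fold decrease. miR-16-1-3p was outside the test, with means of 7.12 ± 2.39 and 7.36 ± 3.81. Of the 7 tested members 6 had a lower mean log2 value in the knockout, where 46.1% of all tested miRNAs did, and their median log2 fold change was -0.06 beside 0.02 for all tested. With upper quartile scaling miR-15b-5p and miR-195a-5p turned to 0.028 and 0.015. Without wild-type replicate 2, miR-16-5p and miR-195a-5p turned to 0.036 and 0.085, and without wild-type replicate 1 miR-15a-5p turned to -0.11.

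**Figure D2:**
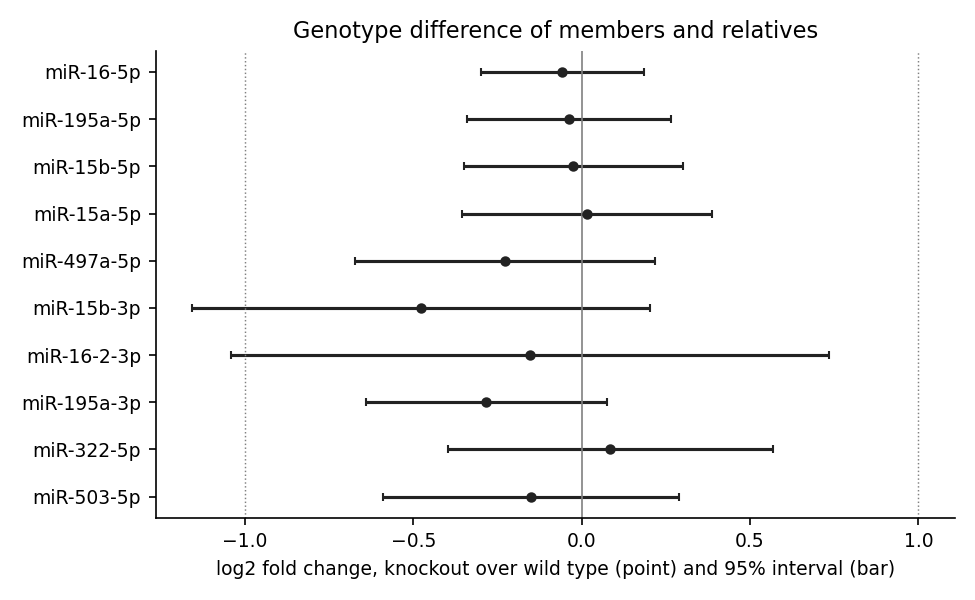
Log2 fold change of knockout over wild type (points) with 95% intervals (bars) for the 7 tested members, the miR-195a-3p partner strand and the related miR-322-5p and miR-503-5p. Every interval includes 0, the abundant guides have the short bars, and dotted lines mark a 2-fold change.

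The choice of strand was read from 5p over 3p values of each hairpin, where scaling between libraries cancels. The family kept its 5p strand at each hairpin. Over all libraries the 5p strand held 99.96% of the deposited values of miR-16 (3p strands of both loci added), 99.2% of miR-15a, 96.2% of miR-15b and 95.2% of miR-195a. miR-497a-3p was listed at 0 in all 8 libraries, where the deposited values of miR-497a-5p were 144 to 363. miR-15a-3p was at 1 to 3 as deposited. Among 141 hairpins with a mean of at least 20 for both strands, 77 had the 5p strand higher.

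The arm ratios of miR-15b and miR-195a did not differ between genotypes by the test. For miR-15b the log2 ratio was 4.66, 4.53, 4.32 and 4.46 in wild type and 5.59, 4.50, 5.11 and 4.60 in the knockout. Knockout replicates 1 and 4 lay above every wild-type library, and replicates 2 and 5 lay within the range. The difference was 0.46 ± 0.23 (SE; 95% interval -0.05 to 0.97; limma adjusted p = 0.973 over the 141 hairpins). With each library left out in turn the difference stayed positive, from 0.25 without knockout replicate 1 to 0.61 without knockout replicate 2. miR-195a differed by 0.25 ± 0.21, from 4.15 ± 0.35 in wild type to 4.40 ± 0.24 in the knockout, with overlapping groups. That difference was 0.16 without wild-type replicate 1, wild-type replicate 3 or knockout replicate 5, each left out alone, and 0.40 without wild-type replicate 2. The test called 0 of the 141 hairpins (0%), and 3 had an unadjusted p under 0.05 (2.13%), neither of these among them.

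The miR-195a-3p strand on its own was at 107, 93.0, 108 and 92.0 in wild type and at 78.6, 101, 74.3 and 75.6 in the knockout. Knockout replicates 1, 4 and 5 were below every wild-type library, and replicate 2 was within their range. Its log2 fold change was -0.28 ± 0.16 (limma adjusted p = 0.994), beside -0.04 for the miR-195a-5p strand of the same hairpin.

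**Figure D3:**
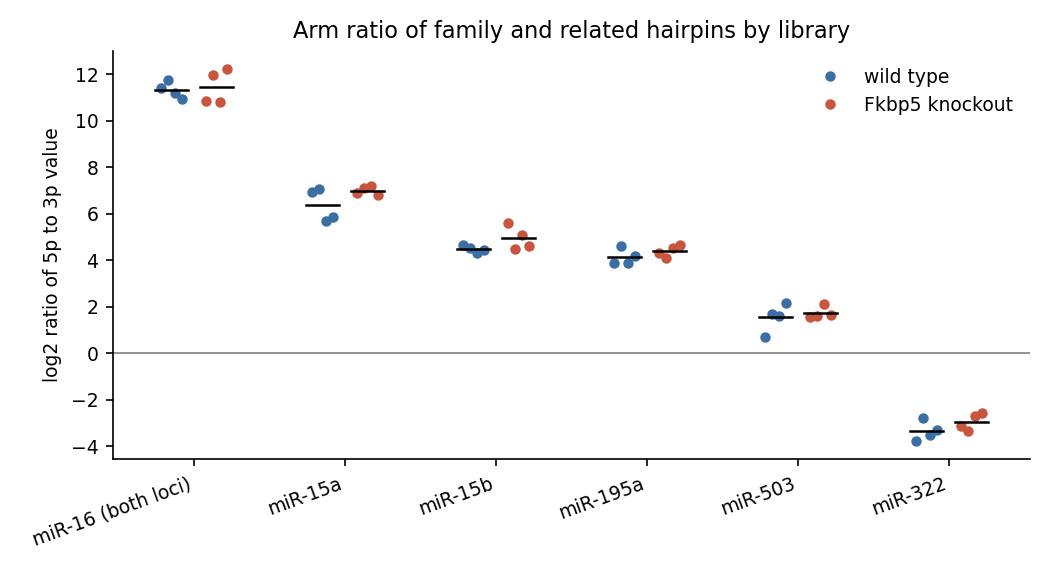
Log2 ratio of 5p to 3p value in each library for miR-16 (3p strands of both loci added), miR-15a, miR-15b, miR-195a, miR-503 and miR-322, with a line at each group's mean. All family hairpins lie above 0 and miR-322 lies below it, with the genotypes overlapping throughout. miR-497a is left out because its 3p strand is listed at 0.

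Loci were compared through 4 ratios between members within a library, each tested by a two-sided exact permutation test over 70 arrangements, whose smallest possible p is 0.0286. The ratio of miR-15a-5p to miR-15b-5p sets Dleu2 against Smc4. On the log2 scale it was -1.89 ± 0.21 for wild type and -1.85 ± 0.07 for the knockout (SD over 4 libraries), a difference of 0.04 with a 95% interval of -0.275 to 0.37 (exact p = 0.771). The same loci seen through miR-16-1-3p and miR-16-2-3p gave -0.56 ± 1.04 and -0.46 ± 0.46, and the interval of that difference, -1.715 to 1.47, was too wide to exclude even a 2-fold shift. The contribution of each locus to miR-16-5p could therefore not be resolved at these levels.

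Within the chromosome 11 locus, miR-195a-5p exceeded miR-497a-5p by 3.19 ± 0.23 in wild type and 3.38 ± 0.17 in the knockout on the log2 scale. The difference of 0.19 had an interval of -0.145 to 0.695 (exact p = 0.257), and wild-type replicate 2 had the lowest ratio, 7.61-fold, against 8.41-fold to 12.3-fold in the other libraries. Without wild-type replicate 2 the difference was 0.10, and without knockout replicate 5 it was 0.11. miR-195a-5p relative to miR-15b-5p, which sets chromosome 11 against Smc4, was 1.14 ± 0.25 and 1.12 ± 0.08, a difference of -0.01 (interval -0.30 to 0.44; exact p = 0.914). Adjusted over the 4 ratios each exact permutation p was 0.914.

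**Figure D4:**
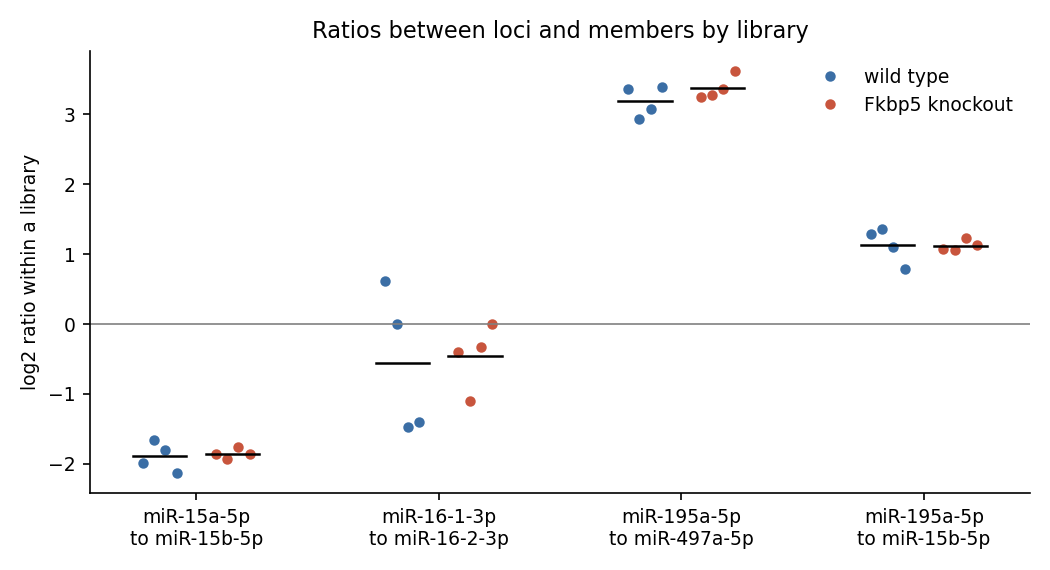
The 4 log2 ratios between members in each library, with a line at each group's mean. The wild-type and knockout libraries overlap for each ratio, and the ratio of the low 3p strands of miR-16 is the most scattered.

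The guides moved partly together from library to library. In wild-type replicate 2 all 5 were above their mean over 8 libraries, by 0.31 (miR-16-5p), 0.39 (miR-195a-5p), 0.16 (miR-15b-5p), 0.37 (miR-15a-5p) and 0.74 (miR-497a-5p) on the log2 scale. In wild-type replicate 1 all 5 were below it, by amounts from -0.04 (miR-16-5p) to -0.41 (miR-15a-5p). Knockout replicate 5 was above the mean for 4 guides and below it for miR-497a-5p (-0.23). The shared pattern thus did not follow genotype. Over the 8 libraries the SD of log2 values was 0.15 for miR-16-5p and 0.32 for miR-497a-5p, with a median of 0.20 over the 368 tested miRNAs at a mean of at least 100.

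How closely members kept step was described by the SD of their log2 ratio over the 8 libraries, where a small value means a steady ratio. The pair with the steadiest ratio was miR-16-5p with miR-195a-5p, at 0.10. Of the 67528 pairs among those 368 miRNAs, 0.561% had an SD as small or smaller, and the median was 0.305. That share is for a pair picked as the smallest of all pairs of guides. For the other pairs of guides the share ran from 1.55% (miR-15a-5p with miR-195a-5p) to 53.5% (miR-15b-5p with miR-497a-5p). Outside the family, miR-19b-3p (0.071), miR-21a-5p (0.088) and miR-384-3p (0.096) kept a steadier ratio to miR-16-5p than miR-195a-5p did (0.097). The miR-16-5p and miR-195a-5p strands come from different chromosomes and differ at 2 positions. How reads that match more than 1 name were counted is not given in the sources used here. miR-15a-5p with miR-195a-5p followed at 0.12. The pairs with a locus in common were not the steadiest: miR-195a-5p with miR-497a-5p was at 0.21, miR-15b-5p with miR-16-5p at 0.22, and miR-15a-5p with miR-16-5p at 0.17. The pairs with miR-16-5p share a locus only in part, because miR-16-5p comes from both Dleu2 and Smc4. Whether a shared locus keeps members in step was not tested.

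**Figure D5:**
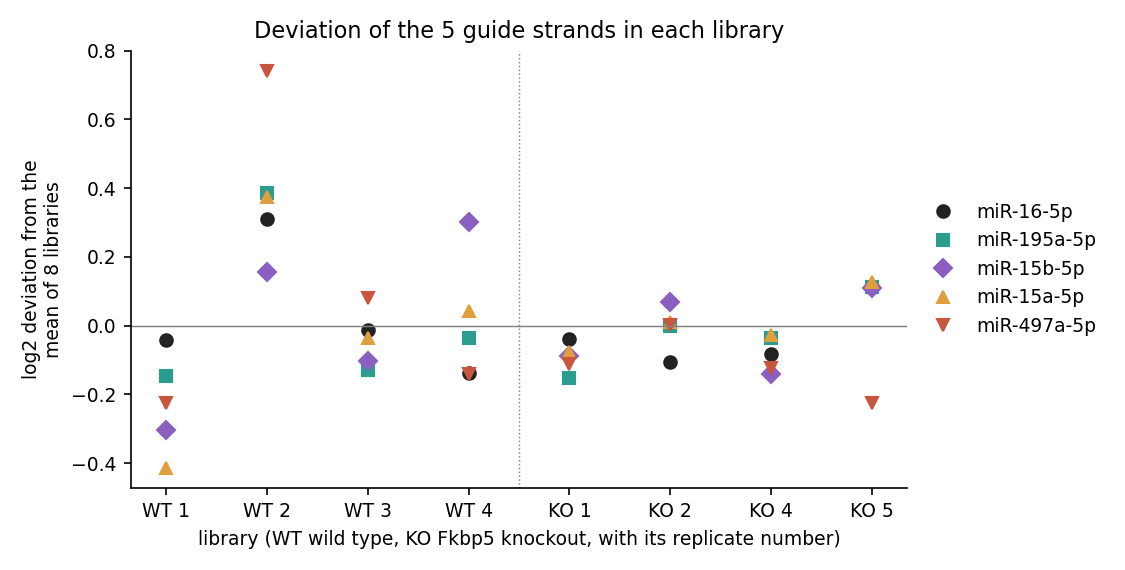
Log2 deviation of each of the 5 guides from its own mean over 8 libraries, by library, wild type on the left and knockout on the right of the dotted line. All 5 are above 0 in wild-type replicate 2 and below 0 in wild-type replicate 1, and miR-497a-5p has the largest deviation, 0.74.

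Among 363 miRNAs outside the family with a mean of at least 100, those with the steadiest ratio to each guide were listed by the same measure. For miR-16-5p they were miR-19b-3p, of the miR-17-92 cluster (SD 0.07), miR-21a-5p (0.09) and miR-384-3p (0.10). For miR-195a-5p they were miR-335-5p (0.09), miR-127-5p (0.11) and again miR-19b-3p (0.11). miR-15b-5p was closest to miR-376c-3p (0.10), miR-872-5p (0.10) and miR-29a-3p (0.11), and miR-15a-5p to miR-29a-3p (0.10), miR-324-5p (0.11) and miR-106b-5p (0.11). miR-497a-5p had no partner as close, with miR-103-3p at 0.16 first, then miR-127-5p (0.19) and miR-126a-5p of endothelium (0.19). All values share the same 8 libraries and scaling factors.

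Other mouse miRNAs carry the seed or one close to it. They are shown to place miR-322 and miR-503, which lie together on the X chromosome, beside the family.
miR-322-5p: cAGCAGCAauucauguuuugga
miR-503-5p: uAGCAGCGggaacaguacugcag
miR-195b: uAGCAGCAcagaaauaguagaa
miR-322-5p carries the seed of the family, and miR-503-5p differs from miR-16-5p in it by A8G. The mean of miR-322-5p was 91.1 ± 26.7 for wild type and 94.8 ± 16.1 for the knockout, a log2 fold change of 0.09 ± 0.22, and wild-type replicate 2 and knockout replicate 5 were again its highest libraries (126 and 115). miR-503-5p averaged 60.6 ± 8.90 and 54.9 ± 10.01, a log2 fold change of -0.15 ± 0.20. It was -0.020 without knockout replicate 4, -0.068 without wild-type replicate 2, and -0.23 when wild-type replicate 1 was left out. Neither passed (limma adjusted p = 0.994 for each).

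The strand balance of miR-322 was the reverse of the family's. Its 5p strand held 10.4% of the hairpin's values (6.84% to 14.4% by library), and its log2 ratio was -3.34 ± 0.41 in wild type and -2.94 ± 0.37 in the knockout, a difference of 0.40 ± 0.24 (limma adjusted p = 0.973). It was 0.26 without wild-type replicate 1 and 0.58 when wild-type replicate 2 was left out. For miR-503 the 5p strand held 75.2%.

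The remaining names were at or near 0. miR-195b shares the seed and differs from miR-195a-5p at 3 of 21 positions, and its value was 1 in knockout replicate 5 and 0 elsewhere. miR-6342, miR-6353 and miR-6419, which carry the seed, and miR-1907 were listed at 0 in all 8 libraries. miR-497b, cut from the strand opposite Mir497, has another seed and was at 1 in wild-type replicate 1 and knockout replicates 1, 2 and 5. Of the 10 names with the seed, the family's 5 guides and miR-322-5p thus held nearly all values.

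The family was set beside 18 other miRNAs tied to the cell cycle, of which 16 were tested. They are some members of the miR-17-92 and miR-106b-25 clusters, which favour division, miR-221 and miR-222, which target the inhibitor p27, and some members of the restraining miR-34/449, let-7 and miR-26 groups, with miR-322-5p and miR-503-5p. By limma 0 of 16 passed after adjustment, against 0 of 599 miRNAs (0%). At an unadjusted p under 0.05 there were 0, against 24 of 599 (4.01%). Mean log2 values were higher in the knockout for 9 and lower for 7, where 53.9% of all tested miRNAs were higher. The list's median log2 fold change was 0.03, beside 0.02 for all tested, and single values ran from -0.15 (miR-503-5p) to 0.17 (miR-20a-5p). Examples were miR-34a-5p, which p53 induces, at 0.16 ± 0.14, miR-221-3p at 0.09 ± 0.09 and miR-25-3p at -0.14 ± 0.12. miR-34b-5p and miR-449a-5p were below the filter.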

How the data were processed

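Each of 8 deposited files lists 1915 mature miRNA names with 1 value. The file headers call them normalized counts. They were therefore treated as a score of unknown scale deposited by the authors, with no count model. All values were whole numbers. Per the submitters' processing notes the build was mm10, and HTSeq 0.6.1p1, Bowtie 1.1.2, edgeR and cutadapt 1.11 were among the tools. Order, settings and the handling of reads with several matches are not given in the sources used here.

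Values were rescaled by a trimmed mean of log ratios (30% of ratios and 5% of levels trimmed at each end). The filter kept 599 miRNAs with a total of 15 or more and at least 10 (at the median library's depth) in 4 or more libraries. limma 3.58.1 (R 4.3.3, trend on mean level) tested genotype on log2(value + 1), and p-values were adjusted by Benjamini-Hochberg (threshold 0.05). Arm ratios (0.5 added to each strand) were tested with limma over 141 hairpins. Locus ratios were tested by exact permutation, and their intervals come from inverting that test. All 8 members were named, with their partner strands and seed relatives, and for each guide the 3 outside miRNAs with the steadiest ratio. The members and lists were chosen with earlier results of these data known. The procedure was tested on simulated data. Sequences are from RefSeq (GRCm38.p6) and gene positions from GENCODE (GRCm38). Other scalings, filters, pseudocounts, a replicate block and leaving out each library in turn served as alternatives. No depth-based interval was made, because the values are labelled normalized.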

Additional observations from a re-analysis of the deposited data

Results flagged for a closer look

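A value far from the rest of its genotype group (4 libraries) was found 3 times in 108 groups, and chance alone gives about 5.4. The partner strand miR-195a-3p was at 101 in knockout replicate 2, and the other knockout libraries were at 74.3 to 78.6. In the cell cycle list, miR-34b-5p was at 7.82 in knockout replicate 4 with the others at 3.14 to 3.47, and miR-222-3p was at 62149 in knockout replicate 1 with the others at 53529.8 to 54870.5. No family member was among them.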

How the results depend on the processing

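The number of members past the threshold was 0, adjusted or not, under every scaling, filter, pseudocount, moderation, block and left-out library tried, and the adjusted count over all miRNAs was 0 in each. The unadjusted count of 24 became 9 for values as deposited (the cause was not tested), 50 without a filter and 14 at a mean of at least 100 (more and fewer miRNAs tested), 38 in the 6 libraries numbered 1, 2 and 4, and 18 to 34 when each library was omitted. Other scalings shifted the median miRNA by at most 0.051.

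Whether replicate numbers pair the libraries is not given in the labels. Deviations from the genotype mean correlated at 0.0648, -0.0385 and 0.132 between same-numbered libraries, for numbers 1, 2 and 4. Differently numbered libraries were not compared. With these numbers as a replicate block, 34 miRNAs had an unadjusted p under 0.05 and 1 arm ratio, none of the family's, passed the adjusted threshold. In the block and in these 6 libraries without it, miR-15a-5p was at -0.026 and miR-322-5p at -0.076, and in the block miR-16-1-3p to miR-16-2-3p differed by -0.35, miR-195a-5p to miR-497a-5p by 0.071, and the arm ratios of miR-195a and miR-322 by 0.076 and 0.22. Upper quartile scaling put miR-15b-5p at 0.028 and miR-195a-5p at 0.015.

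With each library omitted, log2 fold changes ran from -0.11 to 0.14 for miR-15a-5p, -0.12 to 0.059 for miR-15b-5p, -0.13 to 0.036 for miR-16-5p, -0.36 to 0.078 for miR-16-2-3p (in the 4 omissions where it passed the filter), -0.099 to 0.085 for miR-195a-5p and -0.048 to 0.26 for miR-322-5p. Locus differences ran from -0.038 to 0.12 (miR-15a-5p to miR-15b-5p), -0.20 to 0.50 (miR-16-1-3p to miR-16-2-3p), 0.10 to 0.26 (miR-195a-5p to miR-497a-5p) and -0.13 to 0.062 (miR-195a-5p to miR-15b-5p). The 3p members had larger standard errors than the guides, and depth is unknown.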
